A study of Mus musculus with 17 samples.

Results

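Brain tissue imprints are samples of cells and RNA lifted from the living brain, here from the orbitofrontal cortex (OFC) of DAT-cre mice, which express Cre recombinase under the dopamine transporter gene and so in dopamine neurons. The 5 imprints described here are all those taken before oDASS, the optogenetic protocol in which a mouse stimulates its own dopamine neurons, and they are 5 of the 17 libraries of the series. They were chosen by their labels, 2 as perseverer imprints (the mice classed as addicted) and 3 as renouncer imprints (non-addicted). The classes refer to the behaviour that the mice showed in the protocol, which followed the sampling. The other libraries came from dissections after oDASS, of which the 6 of the OFC, 3 of perseverers and 3 of renouncers, were used for comparison. All libraries share the DAT-cre line, and no wild-type mice or mice without the protocol were among the groups analysed here. The labels do not say whether the replicates of a group are separate animals, so that p-values measure the spread between libraries, which may be technical. Which imprints and dissections came from 1 animal is not given either.

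The OFC is a frontal area that weighs the value of an outcome, and its projection neurons and their dopamine input are known for their part in compulsive reward seeking. An imprint carries whatever adheres to it, which may include neurons, glia, vessel cells and blood. Blood brings red cells, whose RNA is mostly haemoglobin, together with platelets, neutrophils and lymphocytes. B lymphocytes carry the B cell receptor with its signalling parts CD79A and CD79B, and they present antigen on MHC class II molecules, whose genes are switched on by the transactivator CIITA.

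In bulk RNA, a smaller number of cells of a type and less RNA per cell cannot be told apart. Total counts ranged from 8960549 to 10662666 in the imprints, against 13997596 to 20945108 in the OFC dissections. Haemoglobin genes took 85.4% and 90.1% of all counts in perseverer replicates 1 and 2, against 29.7%, 90.7% and 89.7% in renouncer replicates 1, 2 and 3. The 95% exact (Clopper-Pearson) binomial intervals were widest in renouncer replicate 1, from 29.69% to 29.75%, and cover counting error only. Renouncer replicate 1 therefore stood apart from the other 4 imprints, and results that rest on it are given with and without it. Outside haemoglobin, 1306576 and 980475 counts were left in the perseverer libraries, against 6556037, 995911 and 1082408 in the renouncer libraries. These counts are the depth behind each value below. A single count was worth 0.587 and 1.48 CPM in the perseverer libraries, against 0.0894, 1.69 and 0.923 CPM in the renouncer libraries. CPM are counts scaled to a library of 1000000 counts outside haemoglobin, after TMM scaling, and values of several libraries are given in the order of their replicate numbers throughout.

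Even outside haemoglobin, red-cell genes filled much of 4 imprints. The 19 measured genes of the red-cell list made up 13.9% and 30.7% of the remaining counts in perseverers, against 1.27%, 33.4% and 22.2% in renouncers. Alas2, which encodes the first enzyme of haem synthesis in red-cell precursors, alone held 6.33% and 15.7% of them in perseverers, against 0.600%, 17.4% and 11.7% in renouncers. In both classes the share thus ran from low to high, and the groups overlapped. In renouncer replicate 1 the gene with the largest share was Malat1, a nuclear long noncoding RNA, with 1.95%.

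**Figure D1:**
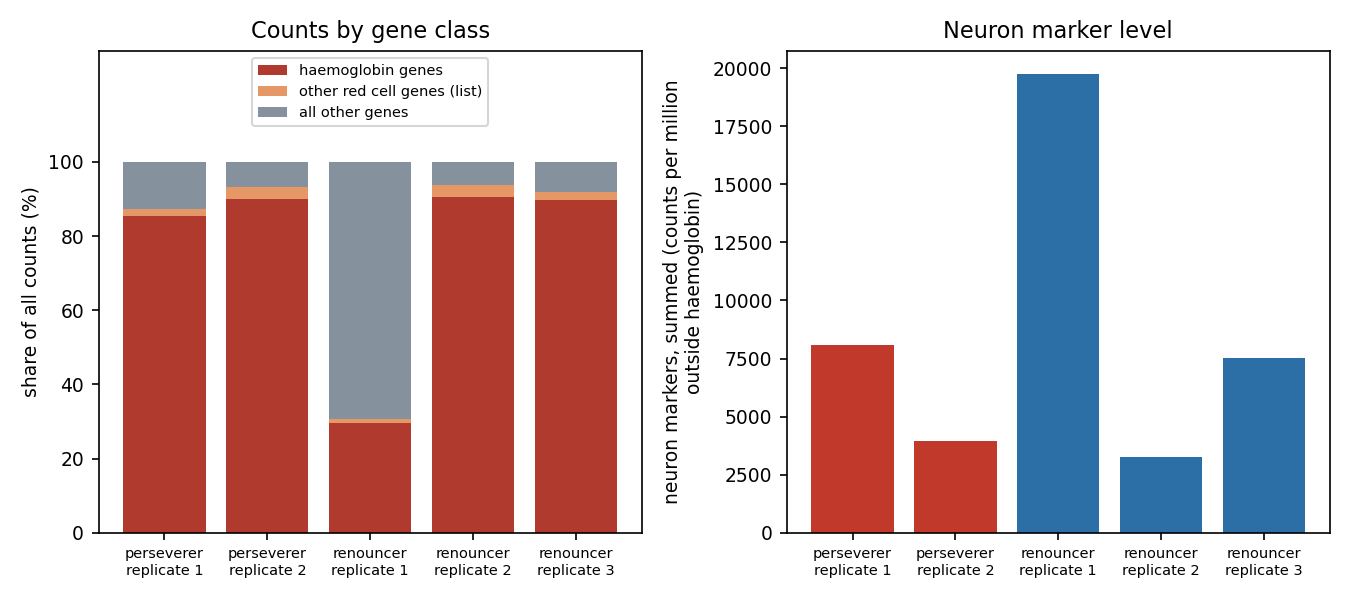
Left, percent of all counts in haemoglobin genes, in the other red-cell genes of the list and in all other genes, for the 5 imprints; right, summed CPM outside haemoglobin of the general and excitatory neuron markers (no TMM scaling). Renouncer replicate 1 holds 29.7% haemoglobin and the highest neuron level, 19762, and the other 4 imprints overlap between the classes.

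The imprints held cortical tissue in every library. Summed markers of neurons stood at 8101 and 3938 CPM (before TMM scaling) in perseverers, against 19762, 3265 and 7525 in renouncers. On the log2 scale this was 12.5 ± 0.74 (SD, n = 2) against 12.9 ± 1.30 (SD, n = 3), a difference of -0.48 (exact permutation p = 0.8, two-sided). Without renouncer replicate 1 the difference was 0.19 and without perseverer replicate 2 it was 0.044. With 2 against 3 libraries, the smallest p that the exact permutation test allows is 0.1. Slc17a7, which loads glutamate into vesicles of cortical excitatory neurons, was present at 273 and 361 CPM in perseverers, against 378, 398 and 476 CPM in renouncers. The choroid plexus markers Ttr, Folr1 and Otx2 were listed at 0 in all 5 imprints. Of the 13 genes of the choroid plexus and ependyma list 2 passed the filter on low counts, Aqp1 and Rarres2. Over 9347 genes (genes are no replicates), the correlation of log2 levels with the mean OFC dissection was 0.578 and 0.541 for perseverer imprints, against 0.774, 0.508 and 0.606 for renouncer imprints.

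At an equal depth of 980475 counts outside haemoglobin, 13113 and 12602 genes were detected in perseverers, against 14847, 12111 and 12377 in renouncers. The difference of the means was -254 genes (exact permutation p = 1.0), and 614 genes without renouncer replicate 1. The haemoglobin share was 87.8% ± 3.31 (SD, n = 2) in perseverers and 70.0% ± 34.9 (SD, n = 3) in renouncers (difference 17.7 percentage points, exact permutation p = 0.9). Without renouncer replicate 1 that difference was -2.41 points.

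No gene passed the threshold between perseverer and renouncer imprints. Of 9562 genes tested with edgeR's quasi-likelihood test, 0 (0.0%) had a Benjamini-Hochberg adjusted p under 0.05. At an unadjusted p under 0.05 there were 166 genes (1.74%), of which 68 (0.711%) had a positive and 98 (1.02%) a negative log2 fold change, where positive means higher in perseverers. The smallest adjusted p was 0.99984. DESeq2 also gave 0 calls (204 unadjusted), and so did limma (524 unadjusted). A fit of all 17 libraries with 1 shared spread estimate gave 61 calls. The common biological coefficient of variation was 0.593 in the imprints, against 0.209 in the OFC dissections. Every adjusted p of an imprint gene printed below is 0.99984 with edgeR, so that the fold changes describe these 5 libraries.

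B lymphocyte genes and MHC class II genes lay higher in both perseverer imprints than in the renouncer imprints, with no gene past the threshold. Of the 17 genes in the B cell list 15 were in the table, and Ighm and Ighd were not measured. Of the 14 that passed the filter on low counts, 14 had a positive log2 fold change (48.7% of all genes tested did), with a median of 1.45 against -0.018 over all genes. For 10 of the 14, both perseverers lay above all 3 renouncers, as did 7.82% of all genes tested. Without renouncer replicate 1, 10 of the 14 lay above both other renouncers, where 16.7% of all genes did, and the median was 0.95. Leaving out single libraries gave medians from 0.95 to 2.21. The scalings and the DESeq2 fit gave medians from 1.39 to 1.81.

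The genes of the B cell receptor complex showed this order. Cd79a stood at 389 and 330 CPM in perseverers, against 20.6, 255 and 126 CPM in renouncers. Cd79b stood at 506 and 254 CPM in perseverers, against 16.4, 213 and 169 CPM in renouncers. Renouncer replicate 1 was far below the other imprints in both genes, and perseverer replicate 2 lay only a little above renouncer replicate 2.

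Bank1, a scaffold protein of B cell receptor signalling (chromosome 3, 136053363 to 136326141, GRCm38), stood at 92.1 and 38.4 CPM in perseverers, against 10.5, 25.3 and 18.5 CPM in renouncers. The groups did not overlap, and the log2 fold change was 1.93 ± 0.63 (SE; unadjusted p = 0.0113). It ranged from 1.13 to 2.42 over the alternatives, the lower value without perseverer replicate 1. Fcmr, the Fc receptor for IgM on B cells, stood at 331 and 214 CPM in perseverers, against 11.3, 144 and 73.9 CPM in renouncers. Its log2 fold change was 1.88 ± 0.80 (SE; unadjusted p = 0.038) and 1.36 without renouncer replicate 1. At an unadjusted p under 0.05 there were 4 of the 14 B cell genes with a positive fold change, where 0.711% of all genes tested were, namely Bank1, Fcmr, Ebf1 and Cd22; Ebf1 is a transcription factor of B cell identity and Cd22 an inhibitory receptor of B cells. Ebf1 and Cd22 were named after their values were seen.

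The MHC class II list had 10 genes, which all passed the filter and all had a positive log2 fold change, with a median of 1.27. For 9 of the 10 both perseverers lay above all 3 renouncers (7.82% of all genes tested did), and for 9 above the other 2 without renouncer replicate 1 (16.7% of all genes). The median without that library was 0.79. Ciita, the transactivator of the class II genes (chromosome 16, 10480014 to 10531064), stood at 48.7 and 23.7 CPM in perseverers, against 6.17, 6.75 and 12.001 CPM in renouncers. It had the smallest p of the list, with a log2 fold change of 2.15 ± 0.71 (SE; unadjusted p = 0.0116), and the libraries behind it held 83 and 16 counts in perseverers, against 69, 4 and 13 in renouncers. H2-Ob, the beta chain of the peptide-loading regulator DO, which B cells express, stood at 147 and 117 CPM in perseverers, against 14.2, 52.3 and 60.9 CPM in renouncers. Its log2 fold change was 1.67 ± 0.61 (SE; unadjusted p = 0.0195) and 1.24 without renouncer replicate 1.

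The peptide-binding chains showed the same order of the groups. H2-Ab1, a beta chain, stood at 1630 and 1224 CPM in perseverers, against 87.8, 868 and 827 CPM in renouncers. Cd74, the invariant chain that escorts class II molecules, stood at 4840 and 2849 CPM in perseverers, against 280, 2582 and 1654 CPM in renouncers. The step between the lower perseverer and the upper renouncer was thus small for Cd74, and only H2-DMb1 overlapped between the groups. The whole class II list summed to between 537 and 8500 CPM in the imprints, against 28.5 to 65.6 CPM in the 6 OFC dissections.

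The class II genes share promoter motifs, of which the Y box is a CCAAT-type sequence bound by the factor NF-Y. Since genes of this list lay higher together, 3 of their promoters, picked after their values were seen, are printed from RefSeq (build GRCm38.p6), each from 250 bases before to 50 after the gene start, with the motif TGATTGG in capitals. They lie at chr17:34238655-34238954 on the plus strand (H2-Ob), chr17:34287774-34288073 on the minus strand (H2-Aa) and chr17:34305617-34305916 on the plus strand (H2-Eb1).
H2-Ob: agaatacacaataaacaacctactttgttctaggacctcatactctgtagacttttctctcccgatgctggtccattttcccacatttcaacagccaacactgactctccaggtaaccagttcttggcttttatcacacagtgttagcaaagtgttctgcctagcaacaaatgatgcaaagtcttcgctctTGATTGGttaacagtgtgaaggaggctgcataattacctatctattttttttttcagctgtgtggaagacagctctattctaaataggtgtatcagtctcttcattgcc
H2-Aa: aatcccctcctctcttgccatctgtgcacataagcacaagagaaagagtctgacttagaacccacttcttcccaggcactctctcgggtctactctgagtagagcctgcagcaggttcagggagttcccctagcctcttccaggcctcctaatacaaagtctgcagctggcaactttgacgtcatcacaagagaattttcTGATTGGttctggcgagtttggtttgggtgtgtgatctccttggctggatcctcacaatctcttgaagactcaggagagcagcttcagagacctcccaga
H2-Eb1: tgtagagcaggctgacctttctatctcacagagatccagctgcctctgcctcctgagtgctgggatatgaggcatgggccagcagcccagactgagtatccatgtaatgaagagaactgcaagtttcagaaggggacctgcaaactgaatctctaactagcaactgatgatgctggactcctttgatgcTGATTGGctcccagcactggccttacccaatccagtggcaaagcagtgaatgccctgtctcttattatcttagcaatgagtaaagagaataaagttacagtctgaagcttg
The motif begins 59, 50 and 61 bases before the gene start in this order. Searched on both strands, TGATTGG was found in 6 of the 7 class II genes that have an entry in the table, all but H2-DMa, and in 2568 of 32851 promoters of the same length (7.82%). A match in these letters is a description of the sequence, and binding was not measured.

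T lymphocyte and natural killer cell genes overlapped between the groups for most members. Of 19 that passed the filter, 18 had a positive log2 fold change, with a median of 0.97, and 0.40 without renouncer replicate 1. For 2 of the 19 both perseverers lay above all 3 renouncers, against 7.82% of all genes tested, and for 2 without renouncer replicate 1, against 16.7% of all genes, so that these counts lay near the background or below it. At an unadjusted p under 0.05 with edgeR there were 3 of the 19 with a positive fold change, where 0.711% of all genes tested were. Klrb1c, the NK1.1 receptor of natural killer cells, stood at 71.6 and 13.3 CPM in perseverers, against 6.08, 18.6 and 4.62 CPM in renouncers. Its groups overlapped, and the log2 fold change of 2.27 ± 0.87 (SE; unadjusted p = 0.0239) was 0.53 without perseverer replicate 1. Cd2, an adhesion receptor of T and natural killer cells, stood at 165 and 53.2 CPM in perseverers, against 5.81, 65.8 and 17.5 CPM in renouncers. Per 100 CPM of this list, the B cell list summed to 184 and 251 CPM in perseverers, against 126, 139 and 194 CPM in renouncers. The groups overlapped in this ratio.

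Red-cell content overlapped between the classes, while the summed B cell list did not. The summed B cell list was 2350 and 1657 CPM in perseverers, against 163, 1337 and 775 CPM in renouncers. The summed red-cell list was 106500 and 445230 CPM in perseverers, against 7451, 561870 and 222040 CPM in renouncers. These sums are not shares of a library, because of the TMM scaling. Its factors were 1.33 and 0.698 in perseverers, against 1.77, 0.601 and 1.01 in renouncers. Per 100 CPM of red-cell genes, the lymphocyte and class II genes summed to 11.4 and 1.78 CPM in perseverers, against 11.1, 1.24 and 2.07 CPM in renouncers, and the groups overlapped. Per 100 CPM of neuron markers the sum was 195 and 139 CPM in perseverers, against 7.15, 127 and 61.0 CPM in renouncers. On this scale the groups did not overlap. Per 100 CPM of neutrophil genes the sum was 899 and 707 CPM in perseverers, against 34.2, 158 and 1169 CPM in renouncers. The groups overlapped on the neutrophil scale. With platelet genes as the scale, it was 707.81 and 128.93 CPM in perseverers, against 26.156, 108.02 and 64.73 CPM in renouncers. The groups did not overlap on the platelet scale. The part of the blood content in the lymphocyte and class II values was not tested.

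**Figure D2:**
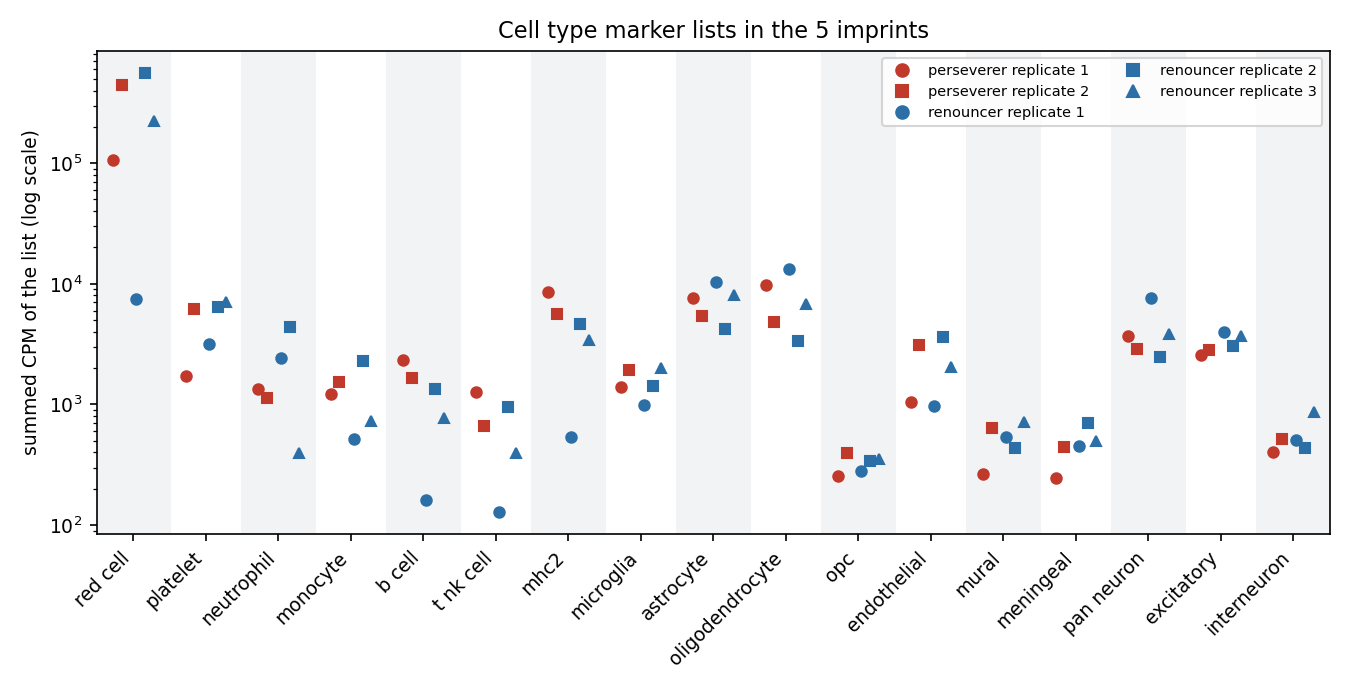
Summed CPM of each cell type marker list (log axis) in the 5 imprints, with perseverers in red and renouncers in blue and 1 symbol per replicate number. The B cell and MHC class II sums lie higher in both perseverers than in any renouncer, while the red-cell sums range from 7451 to 561870 CPM with both classes mixed. Bsg, at 458 to 3419 CPM, gives much of the endothelial sums (967 to 3652 CPM). Myl9, at 207 to 691 CPM, gives most of the mural sums (266 to 722 CPM).

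Other blood cell lists lay on the opposite side or overlapped. Of 15 platelet genes, 1 had a positive log2 fold change and the median was -0.49. The list summed to 1713 and 6152 CPM in perseverers, against 3165, 6443 and 7088 CPM in renouncers, so that perseverer replicate 1 held the lowest sum and perseverer replicate 2 lay among the renouncers. Without perseverer replicate 1 the platelet median was 0.16, without perseverer replicate 2 it was -1.79, and without renouncer replicate 1 it was -0.90. Gp9, part of the von Willebrand factor receptor of platelets, stood at 105 and 325 CPM in perseverers, against 193, 407 and 448 CPM in renouncers.

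Neutrophil genes had a negative log2 fold change in 10 of the 10 members that passed the filter, with a median of -1.25, and the groups overlapped in all 10. S100a8, a calcium-binding protein of neutrophils, stood at 560 and 579 CPM in perseverers, against 1011, 2126 and 203 CPM in renouncers. Renouncer replicate 3 was the lowest of the imprints and the other renouncers the highest. Without renouncer replicate 2 the list median was -0.14, and without renouncer replicate 1 it was -1.05. Lcn2, a neutrophil granule protein that binds siderophores, stood at 33.4 and 5.91 CPM in perseverers, against 115.02, 127 and 6.46 CPM in renouncers. Monocyte genes had a median of 0.40 over 12 genes, and 0.094 without renouncer replicate 1.

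Most inflammation genes were sparse in the imprints. Of 20 cytokine and acute inflammation genes 6 passed the filter, and Il6, Tnf, Cxcl1, Cxcl2 and Sele were listed at 0 in all 5 imprints. Nfkbia, the inhibitor that NF-kappaB induces, stood at 103 and 87.2 CPM in perseverers, against 40.3, 49.0 and 48.0 CPM in renouncers. The groups did not overlap, and the log2 fold change was 1.06 ± 0.47 (SE; unadjusted p = 0.0438). It ranged from 0.94 to 1.37 over the alternatives. Selp, the P-selectin of platelets and endothelium, held 2 counts in both perseverers together and 94 in the renouncers. The ratio of its pooled levels was 0.115 (95% exact conditional binomial interval 0.0137 to 0.427, counting error only). Interferon-induced genes had a positive log2 fold change in 11 of 17 members, with a median of 0.22 that was -0.42 without renouncer replicate 1.

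Lists of glia, vessel cells, fibroblasts and choroid plexus had medians between -0.78 and 0.33. Astrocyte genes had a positive log2 fold change in 1 of 15 members, with a median of -0.32, which was 0.13 when the summed neuron markers were used as library size, a scaling that moved the median of all genes to 0.33. Relative to all genes the astrocyte median lay between -0.41 and -0.20 over the scalings, and without renouncer replicate 1 it was -0.034, with 7 of 15 genes positive. Aldoc, an astrocyte-enriched glycolytic enzyme, stood at 4710 and 2714 CPM in perseverers, against 5238, 2046 and 4762 CPM in renouncers. Microglial genes had a positive log2 fold change in 9 of 16 members and a negative one in 7. Their median was 0.093, and -0.093 without renouncer replicate 1. Cx3cr1, the fractalkine receptor of microglia and some monocytes, stood at 78.6 and 173 CPM in perseverers, against 59.2, 62.5 and 68.3 CPM in renouncers. Both perseverers lay above the renouncers, with a log2 fold change of 0.98 ± 0.49 (SE; unadjusted p = 0.0716). Of the 16 members, 2 showed this order, Cx3cr1 and Aif1, and 1 the opposite order, P2ry12. The log2 fold change of P2ry12 was -0.31 ± 0.46 (SE), and this gene was named after its values were seen.

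Oligodendrocyte genes had a positive log2 fold change in 9 of 11 members, with a median of 0.33 that was -0.47 without perseverer replicate 1 and 0.31 without renouncer replicate 1. Mbp, the myelin basic protein, stood at 6688 and 3404 CPM in perseverers, against 9865, 1969 and 5387 CPM in renouncers. Endothelial genes had a median of -0.32 over 10 members, which ranged from -1.87 to 0.22 when single libraries were left out and was 0.082 without renouncer replicate 1. Of 14 measured fibroblast genes of the meninges and vessels 5 passed the filter, 2 with a positive and 3 with a negative log2 fold change. Their median was -0.78, which was 0.34 without renouncer replicate 2 and -0.58 without renouncer replicate 1. Dcn, the matrix proteoglycan decorin, had 0 counts in both perseverers, against 5.45, 23.6 and 2.77 CPM in renouncers. It was at least 8.43-fold lower in perseverers, taken against the level of 3 counts over both libraries, 1.26 CPM, and the bound was 3.26-fold without renouncer replicate 2. Renouncer replicate 3 itself held only 3 counts of Dcn. The bound covers counting error in the perseverers only and leaves out the spread between libraries.

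General neuron markers had a positive log2 fold change in 4 of 18 members. Their median was -0.26 in the TMM scaling and 0.049 without renouncer replicate 1. With the neuron markers as library size it was 0.21, but that library size is taken from the sum of this list and the excitatory list. For these 2 lists it is therefore no independent scaling. Meg3, a maternally expressed long noncoding RNA of neurons, stood at 708 and 370 CPM in perseverers, against 3262, 198 and 530 CPM in renouncers, and its log2 fold change of -1.30 ± 1.20 (SE) was 0.59 without renouncer replicate 1. It held 1207 and 250 of the 10585 and 3861 neuron marker counts in perseverers. In renouncers it held 36500, 117 and 574 of 129559, 3252 and 8145, so the neuron scaling leans on Meg3 most in renouncer replicate 1. The excitatory neuron list had a negative median under all scalings, between -0.55 and -0.067, and for 6 of its 13 members both perseverers lay below all 3 renouncers, as did 7.66% of all genes tested. Without renouncer replicate 1 the median was -0.36 and 7 members lay below, where 13.8% of all genes did. Camk2a, the alpha subunit of calcium/calmodulin-dependent kinase II, stood at 439 and 618 CPM in perseverers, against 1203, 707 and 681 CPM in renouncers. Neurod2, a transcription factor of cortical projection neurons, stood at 14.1 and 10.3 CPM in perseverers, against 31.2, 35.5 and 16.6 CPM in renouncers. Neither gene overlapped between the groups, and the unadjusted p was 0.385 for Camk2a and 0.129 for Neurod2 with edgeR. The summed neuron markers overlapped between the classes, and the part of neuron content in these values was not tested.

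Interneuron genes had a median of -0.43 over 11 members, which was 0.17 with the neuron markers as library size, -0.17 without renouncer replicate 1 and -0.024 without perseverer replicate 1. Vip, a peptide of cortical interneurons, held 3 counts in both perseverers together, against 116 in the renouncers, of which 94 came from replicate 1. The ratio of its pooled levels was 0.140 (95% exact conditional binomial interval 0.0284 to 0.419, counting error only). With edgeR, which takes in the spread between libraries, the unadjusted p of Vip was 0.0672. Npy, another interneuron peptide, stood at 51.6 and 69.5 CPM in perseverers, against 52.1, 13.5 and 34.2 CPM in renouncers. The groups overlapped for Npy.

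Receptor and postsynaptic genes mostly had negative log2 fold changes in the TMM scaling, with positive ones in 4 of 20 postsynaptic density and metabotropic glutamate receptor genes, 1 of 14 AMPA and NMDA receptor genes and 3 of 13 GABA receptor genes. The medians of these lists were -0.55, -0.49 and -0.49, which were -0.075, -0.021 and 0.021 with the neuron markers as library size. Without renouncer replicate 1 they were -0.18, -0.015 and -0.23. Dlgap3, a scaffold protein of excitatory synapses, stood at 39.9 and 57.7 CPM in perseverers, against 120, 87.8 and 96.01 CPM in renouncers. The groups did not overlap, and the log2 fold change was -1.07 ± 0.49 (SE; unadjusted p = 0.0507). Synaptic vesicle genes had a median of -0.27 over 22 members, 0.19 in the neuron scaling and -0.056 without renouncer replicate 1. Sv2a, a vesicle glycoprotein, stood at 46.3 and 38.4 CPM in perseverers, against 54.6, 89.5 and 111.7 CPM in renouncers.

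Most dopamine genes did not pass the filter on low counts in the imprints. Of 13 listed genes 4 passed the filter, and Drd2, Drd3, Drd4 and Th, the tyrosine hydroxylase of catecholamine synthesis, were listed at 0 counts in all 5 imprints. A count of 0 leaves up to 3 counts, so that low levels of these genes are not excluded. Whether depth or absence lies behind the zeros was not tested. Ppp1r1b, a phosphatase inhibitor that acts downstream of dopamine receptors, stood at 65.1 and 38.4 CPM in perseverers, against 84.9, 10.1 and 111.7 CPM in renouncers, and the groups overlapped. Of 26 receptors of serotonin, noradrenaline, acetylcholine and other modulators 6 passed, and of 16 neuropeptide genes 4 passed.

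Arc, an activity-induced gene of postsynaptic plasticity, stood at 61.0 and 37.0 CPM in perseverers, against 94.4, 198 and 215 CPM in renouncers. Both perseverers lay below all 3 renouncers, and the lowest renouncer was replicate 1. The log2 fold change was -1.77 ± 0.56 (SE; unadjusted p = 0.00926) and -2.03 without renouncer replicate 1, with a range from -2.19 to -1.45 over the alternatives. In the dissections after oDASS, Arc stood at 1049, 1054 and 1677 CPM in perseverers, against 1049, 1058 and 669 CPM in renouncers, a log2 fold change of 0.45. The difference between the imprint and the dissection contrast was -2.19 (unadjusted p = 0.0014), which edgeR's quasi-likelihood test did not pass after adjustment over all genes. Of 16 activity-induced genes that passed the filter, 7 had a positive log2 fold change, with a median of -0.068, which ran from -0.46 without perseverer replicate 2 to 0.27 without renouncer replicate 2 and was -0.13 without renouncer replicate 1. For 4 of the 16, Arc, Egr1, Egr4 and Nptx2, both perseverers lay below all renouncers (7.66% of all genes tested did), and for 1, Homer1, above (7.82% of all genes). Fos, the classic immediate early gene, stood at 22.3 and 47.3 CPM in perseverers, against 12.5, 57.4 and 19.4 CPM in renouncers, and overlapped; Egr1, Nptx2, Homer1 and Fos were named after their values were seen.

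**Figure D3:**
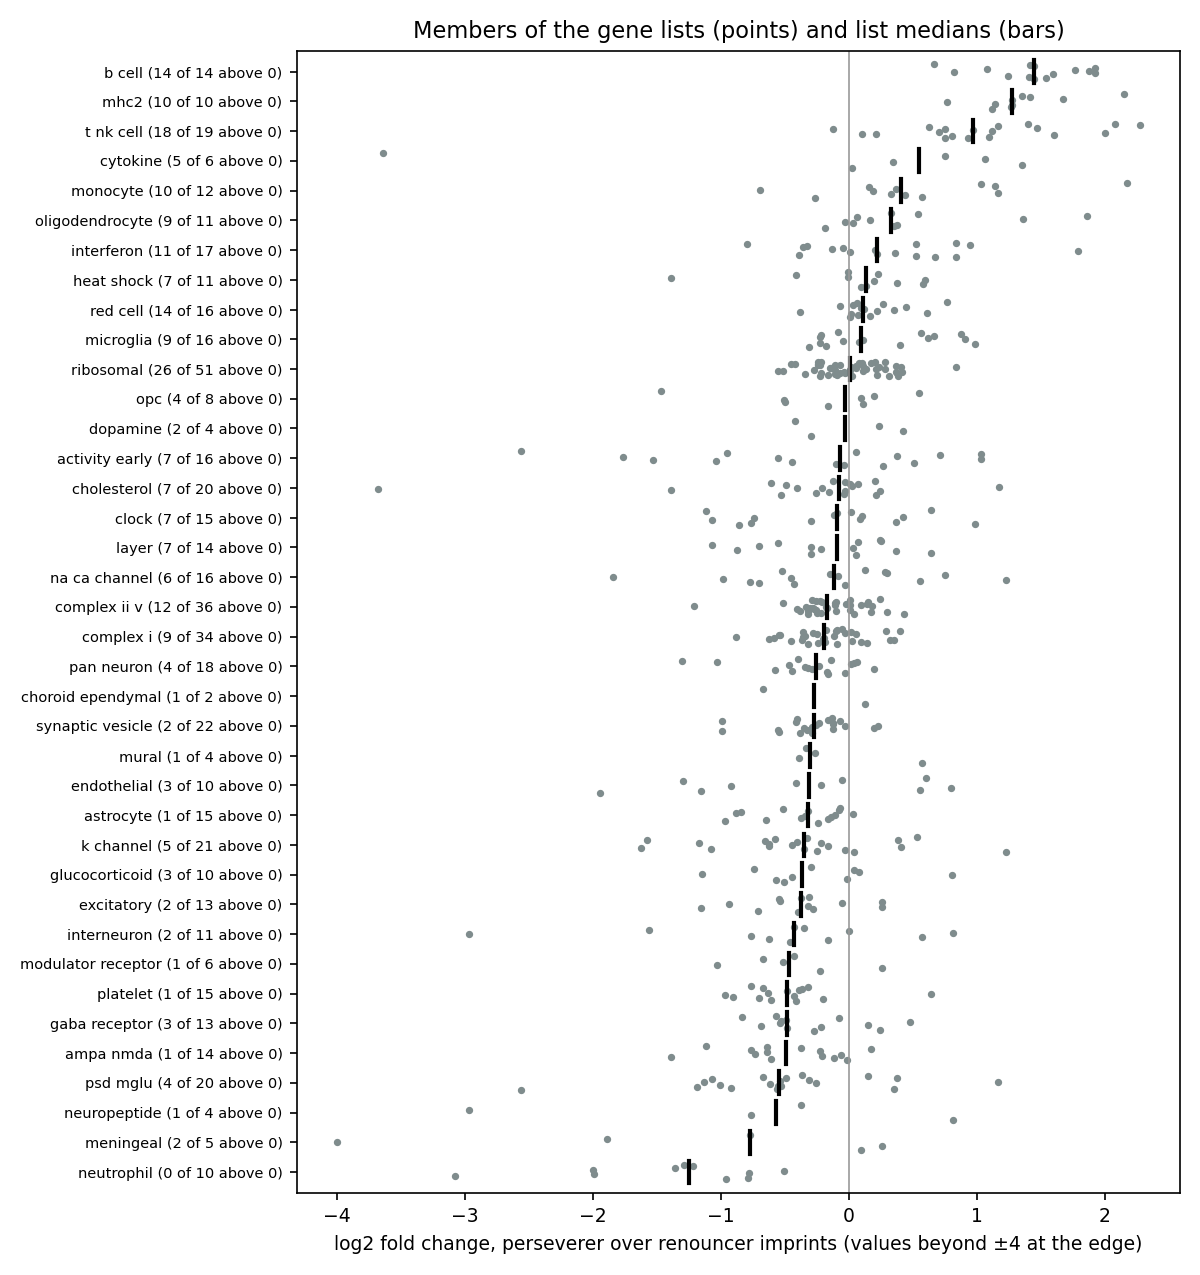
Log2 fold change of perseverer over renouncer imprints (TMM scaling) for every member of each gene list that passed the filter (points), with the list median (bars), ordered by median. B cell, MHC class II and T and natural killer cell lists lie to the right (medians 1.45, 1.27 and 0.97), and the neutrophil list lies farthest to the left (-1.25).

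The 10 genes with the smallest p of a positive fold change included Bank1 and Ciita, given above. Lrmp, a membrane protein of the endoplasmic reticulum in lymphoid cells (chromosome 6, 145111715 to 145174929), stood at 45.8 and 26.6 CPM in perseverers, against 2.77, 6.75 and 0 CPM in renouncers. Its log2 fold change was 3.68 ± 1.01 (SE; unadjusted p = 0.00377), and 3.67 without renouncer replicate 1. Def6, a guanine nucleotide exchange factor of lymphocytes (chromosome 17, 28207456 to 28228608), stood at 45.8 and 22.2 CPM in perseverers, against 4.92, 6.75 and 5.54 CPM in renouncers, with a log2 fold change of 2.62 ± 0.73 (SE). An unnamed antisense gene overlaps 14.6% of its exons, and the library kit does not keep the strand. In the OFC dissections Lrmp did not exceed 1.62 CPM and Def6 did not exceed 3.93 CPM.

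Among the others of the 10, Chst3, a chondroitin sulfotransferase, stood at 18.8 and 28.1 CPM in perseverers, against 2.95, 0 and 0 CPM in renouncers. Mfhas1, a leucine-rich repeat protein, stood at 53.4 and 62.1 CPM in perseverers, against 20.4, 8.44 and 14.8 CPM in renouncers. Ctc1, a component of the telomere replication complex CST, Abhd17b, a depalmitoylating enzyme, Rnase6, a secreted ribonuclease of myeloid cells, and Elf1, an ETS transcription factor, had log2 fold changes of 2.07 ± 0.70, 1.69 ± 0.58, 2.35 ± 0.80 and 1.73 ± 0.59 (SE). Both perseverers lay above all renouncers for each of these genes.

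On the lower side, the 10 genes with the smallest p held few counts in both perseverer imprints. Twsg1, a secreted modulator of BMP signalling (chromosome 17, 65923065 to 65951187), had 0 counts in both perseverers, against 139, 19 and 14 counts in renouncers. Its level was at least 15.2-fold lower in perseverers, against 3 counts over both libraries, and the bound was 10.1-fold without renouncer replicate 2. The bound covers counting error in the perseverers only and leaves out the spread between libraries. In the dissections Twsg1 stood at 37.8, 34.1 and 34.2 CPM in perseverers, against 35.1, 48.8 and 31.2 CPM in renouncers. Rapgef5, an exchange factor for Rap GTPases (chromosome 12, 117516526 to 117759737), stood at 2.93 and 2.96 CPM in perseverers, against 24.8, 21.9 and 34.2 CPM in renouncers, with a log2 fold change of -3.18 ± 0.84 (SE; unadjusted p = 0.00298). It rests on 5 and 2 counts in perseverers, against 277, 13 and 37 counts in renouncers.

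Cnnm1, a CBS-domain membrane protein, stood at 2.93 and 4.43 CPM in perseverers, against 33.4, 18.6 and 33.2 CPM in renouncers. Cpne6, a calcium-dependent phospholipid-binding protein of the brain, stood at 8.21 and 4.43 CPM in perseverers, against 25.7, 50.7 and 36.9 CPM in renouncers. Adgrb3, an adhesion receptor of synapses, held 3 counts in both perseverers together and 213 in the renouncers. The ratio of its pooled levels was 0.0761 (95% exact conditional binomial interval 0.0156 to 0.225). Ocrl, an inositol phosphatase, held 3 counts in perseverers and 229 in renouncers, at a ratio of 0.0708 (0.0145 to 0.209). Traf3, an adaptor of TNF receptor signalling, stood at 1.76 and 5.91 CPM in perseverers, against 40.3, 21.9 and 22.2 CPM in renouncers. Med23, a subunit of Mediator, held 1 count in both perseverers together, against 7.86, 8.44 and 38.8 CPM in renouncers, at a ratio of 0.0400 (0.00101 to 0.227). Zfp521, a zinc finger protein of progenitor cells, stood at 0.587 and 0 CPM in perseverers, against 23.1, 1.69 and 26.8 CPM in renouncers. Its perseverer counts came to 1 in all, and renouncer replicate 2 also held 1 count, so that this library lay close to the perseverers. The ratio of its pooled levels was 0.0187 (0.000472 to 0.105). Renouncer replicate 1 gave most of the renouncer counts behind these pooled ratios, and their intervals cover counting error only.

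Lss, the lanosterol synthase of cholesterol synthesis, stood at 4.11 and 0 CPM in perseverers, against 57.2, 21.9 and 17.5 CPM in renouncers, with a log2 fold change of -3.68 ± 1.06 (SE; unadjusted p = 0.00532). Sqle, the squalene epoxidase of the step before it, stood at 13.5 and 10.3 CPM in perseverers, against 30.5, 30.4 and 34.2 CPM in renouncers (log2 fold change -1.39 ± 0.65, unadjusted p = 0.0571). Over the 20 genes of the cholesterol list that passed, 7 had a positive log2 fold change and the median was -0.081, which was 0.044 without renouncer replicate 1 and -0.50 without perseverer replicate 1. Both perseverers lay below all renouncers for Lss and for Sqle.

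**Figure D4:**
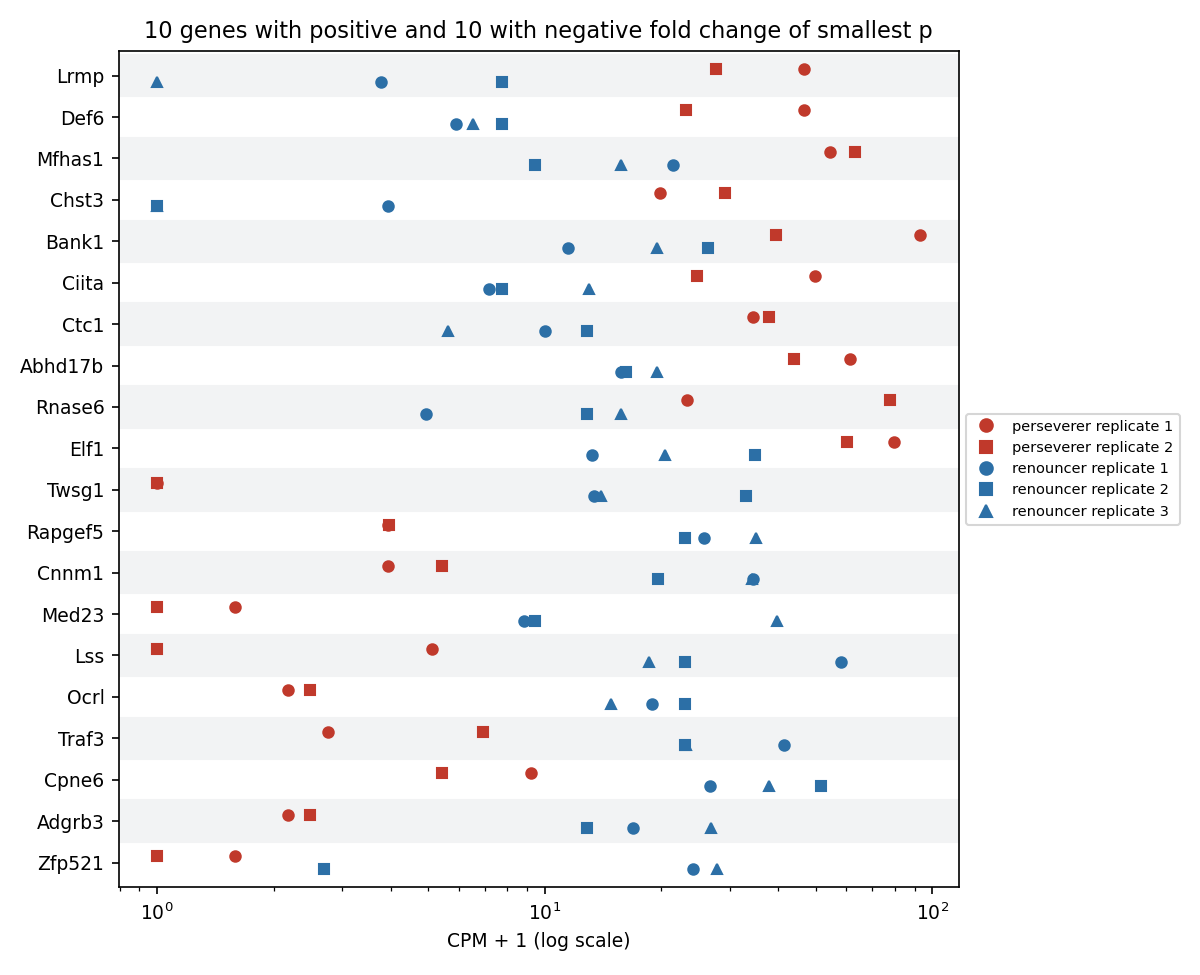
CPM + 1 (log axis) in each imprint for the 10 genes with positive and the 10 with negative log2 fold change that have the smallest p with edgeR; perseverers in red, renouncers in blue, 1 symbol per replicate number, and points that coincide hide each other. Perseverers and renouncers do not overlap in any of the 20 genes, which were picked by their p, and none passed the threshold.

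The contrast in imprints was set beside that in the OFC dissections taken after oDASS, which differ in stage and in the way of collection together. Among 14615 genes tested in the dissections, 0 (0.0%) passed edgeR's adjusted p of 0.05, 377 (2.58%) had an unadjusted p under 0.05, and DESeq2 and limma were not run there. The test of the difference between the 2 contrasts, over 15675 genes, gave 0 calls (0.0%) with edgeR, 1366 (8.71%) at an unadjusted p under 0.05 and a smallest adjusted p of 0.25537. DESeq2 called 77 genes, and edgeR without perseverer replicate 2 called 4. For genes that were picked by their p in the imprints, this difference was 3.22 for Lrmp, 2.47 for Def6, 1.82 for Bank1, -3.22 for Rapgef5 and -3.44 for Cnnm1 on the log2 scale, with unadjusted p of 0.00714, 0.00379, 0.0146, 0.000114 and 6.08e-05.

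The B cell genes were near 0 in the dissections. The B cell list summed to between 163 and 2350 CPM in the imprints, against 6.02 to 13.3 CPM in the dissections, and Cd79a did not exceed 0.265 CPM in any dissection. The summed general neuron list ran the other way, at 2452 to 7606 CPM in the imprints, against 11902 to 13803 CPM in the dissections. Every imprint lay outside the range of the dissections in both sums. Not all members of the neuron list followed its sum. Snap25 did, at 337 to 710 CPM in the imprints, against 3435 to 5008.5 CPM in the dissections. Meg3 was higher in the imprints, at 198 to 3262 CPM, against 19.6 to 73.8 CPM in the dissections. Snhg11 stood at 79.4 to 642 CPM in the imprints, against 22.4 to 92.9 CPM in the dissections.

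**Figure D5:**
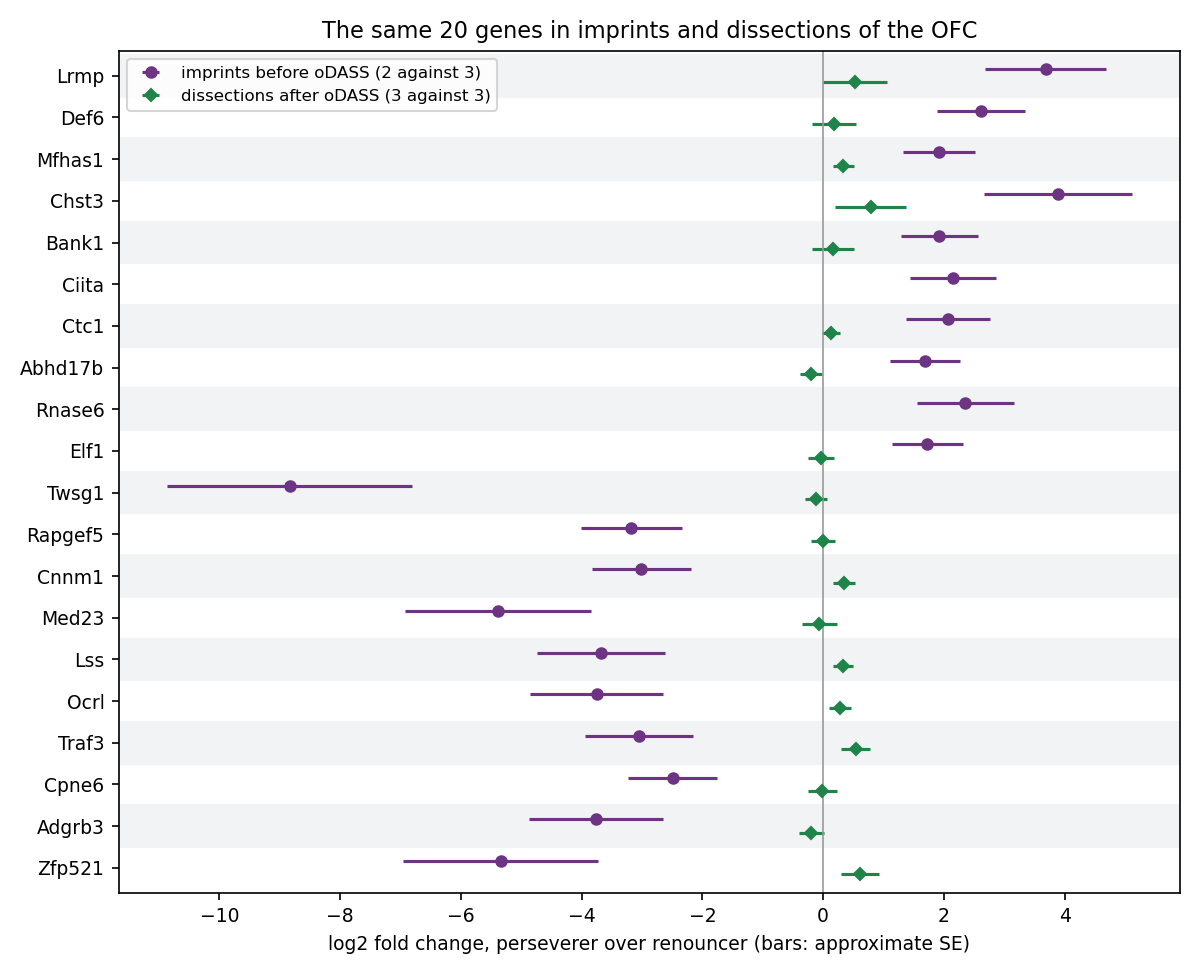
Log2 fold change of perseverer over renouncer for the same 20 genes in imprints before oDASS (purple, 2 against 3 libraries) and in OFC dissections after it (green, 3 against 3), with bars for the approximate SE; genes without a green point were not tested in the dissections. The dissection values lie between -0.20 (Abhd17b) and 0.79 (Chst3), and the imprint value of Twsg1, which has 0 counts in perseverers, depends on the prior count of the fit.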

How the data were processed

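Bulk RNA was measured in 17 libraries, of which the 5 OFC imprints and 6 OFC dissections were used, and the other 6 entered 1 alternative. The authors deposited raw counts per gene. Per the labels, a Qiagen kit gave total RNA, and SMART-Seq v4 with Nextera served for the libraries, without strand, so reads of overlapping or antisense genes cannot be told apart. FastQC 0.11.8 and the build mm10 come from the submitters' processing notes. Which aligner, counter and annotation were used is not given in the sources used here. Symbols were matched to RefSeq of GRCm38 (25041 of 25239).

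Symbols starting with Hba- or Hbb- were removed before scaling. Counts were tested in R 4.3.3 with edgeR 4.0.16 (filterByExpr, TMM, robust quasi-likelihood test, two-sided, Benjamini-Hochberg adjusted p under 0.05). Printed SEs are approximate (size of the log2 fold change over the root of F). CPM use the totals of the tested genes outside haemoglobin multiplied by the TMM factor. Single values per library were compared by exact permutation. Alternatives were DESeq2 1.42.0, limma 3.58.1 with voom quality weights, other scalings and filters, haemoglobin kept, the red-cell list removed, a replicate block, all 17 libraries and each library left out. The test was also run on simulated data in which the libraries did not differ in blood content. That run therefore does not show how the test performs on these imprints. Counts of members whose groups did not overlap without renouncer replicate 1, and bounds on folds without single renouncers, were added after seeing the data.

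The libraries and the 39 gene lists were chosen with earlier results of these data known. Named genes are the 10 with positive and the 10 with negative log2 fold change of smallest p (without predicted or sex-linked genes), up to 2 members per list with the smallest p and, for levels, 2 per cell type list with the highest mean CPM. Some genes that this rule takes are not reported here. Others named for a level or a 0 were chosen after their values were seen.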

Additional observations from a re-analysis of the deposited data

How the results depend on the processing

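The count of 0 genes past the threshold between imprints held under the other scalings, filters, tools, an adjusted p of 0.1 and each library left out, and the exception was the fit of all 17 libraries with 1 shared spread, which called 61 genes (18 higher and 43 lower). In that fit 13 of the 89 named genes tested passed. For the difference between imprints and dissections, DESeq2 gave 77 genes, and leaving out single libraries gave 0 to 4. Leaving out single libraries moved the difference in haemoglobin share between -2.41 and 28.1 percentage points, genes detected between -754 and 614, and the neuron level between -1.11 and 0.19. The median log2 fold change of all genes was -0.18 with totals alone and 0.33 with neuron markers as library size. Of the named genes 11 turned sign in at least 1 alternative. Over the left-out libraries the log2 fold change ran from -1.07 to 0.24 for Tfrc, -0.72 to 2.74 for Hapln2, -0.54 to 1.27 for Olig2, -1.21 to 0.21 for Myl9, -2.47 to 0.23 for Rarres2, -1.66 to 0.97 for Aqp1, -1.48 to 0.24 for Snhg11, -1.83 to 0.59 for Meg3, -0.91 to 0.038 for Ppp1r1b, -1.95 to 0.28 for Chrm1 and -0.23 to 0.90 for Sdhc. With limma the value was -0.38 for Olig2, -0.53 for Aqp1, 0.092 for Snhg11, 0.49 for Meg3 and 0.10 for Ppp1r1b. Totals alone gave -0.12 for Olig2 and -0.14 for Aqp1, and the neuron scaling gave 0.0098 for Myl9 and 0.091 for Ppp1r1b. The cause of these turns was not tested. With the replicate number as a block the count of calls was also 0 (185 at an unadjusted p under 0.05), with -0.020 for Aqp1 and 0.55 for Ppp1r1b. Libraries of the same number deviated together at 0.253 and 0.197, but with 2 pairs they share only a number. Where 1 perseverer is left out, the other is assumed to vary like the renouncers. Depth limits the imprints, with as few as 980475 counts outside haemoglobin.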

Other observations

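The medians of ribosomal and respiratory gene lists moved with single libraries. Of 51 ribosomal protein genes that passed the filter, 26 had a positive log2 fold change between perseverer and renouncer imprints, with a median of 0.0093. With all 5 libraries, both perseverers lay below all renouncers for 0 of the 51 and above for 1, where 7.66% and 7.82% of all genes did. Without renouncer replicate 1 the median was -0.33, and for 25 of the 51 both perseverers lay below the other renouncers, where 13.8% of all genes did. Nuclear-encoded genes of respiratory complex I, the entry point of the mitochondrial electron chain, had a median of -0.19 over 34 members, which was -0.32 without that library and 0.17 without renouncer replicate 3. In the OFC dissections the medians were -0.19 for ribosomal genes over 75 members and -0.22 for complex I over 34. Clock genes had a median of -0.094 over 15 members, which was 0.20 without renouncer replicate 1, and Cry2, a repressor of the clock, stood at 55.7 and 53.2 CPM in perseverers, against 92.1, 74.3 and 177 CPM in renouncers (log2 fold change -1.07 ± 0.54 SE, unadjusted p = 0.0705 with edgeR).

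Heat-shock genes had a median of 0.13 over 11 members, which was -0.17 without perseverer replicate 1 and 0.12 without renouncer replicate 1. Glucocorticoid-induced genes had a median of -0.37 over 10 members, which was -0.060 without renouncer replicate 1 and 0.19 with the neuron markers as library size. Potassium channel genes had a median of -0.35 over 21 members, which was 0.29 without renouncer replicate 1 and 0.012 with the neuron markers as library size. Kcnj9, a subunit of G protein-gated potassium channels, stood at 4.69 and 7.39 CPM in perseverers, against 25.9, 16.9 and 9.23 CPM in renouncers. Kcna1, a voltage-gated subunit of axons, lay on the other side, at 48.1 and 32.5 CPM in perseverers, against 26.3, 3.38 and 19.4 CPM in renouncers.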
